A study of Rattus norvegicus with 18 samples.

Results

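The control diaphragm (DIA), the main muscle of breathing, was set against the control extensor digitorum longus (EDL), a fast muscle of the lower hindlimb, in rats without disease. The arrays were chosen by their labels alone: 3 DIA control and 3 EDL control arrays, which are 6 of the 18 arrays of a series on experimental autoimmune myasthenia gravis (EAMG), where antibodies against the acetylcholine receptor weaken muscle. All rats were female Lewis rats, 6 to 8 weeks old at the start. Both groups received complete Freund's adjuvant with 0.5 mg of killed Mycobacterium tuberculosis per rat, the EAMG rats also 40 µg of Torpedo acetylcholine receptor (AChR), and muscles were taken 6 weeks later. The controls were therefore adjuvant treated rats, and no untreated rats were compared here. Each array held RNA of several rats, 3 per sample by the series design and 4 to 5 by the study's methods, so p-values measured the spread between 3 pools per muscle and not between animals. Expression was read as GCOS signal, a linear hybridization intensity per probe set in arbitrary units, scaled by the authors to 1 target on all arrays.

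Fibres of limb and breathing muscle are classed by the myosin heavy chain they hold, Myh7 in slow type I fibres, Myh2, Myh1 and Myh4 in the fast types IIa, IIx and IIb. Slow fibres hold slow forms of the troponins and of the calcium store proteins, and burn fat and lactate in mitochondria; the fastest fibres break down glycogen and glucose. The diaphragm works without rest as a sheet between chest and abdomen, covered by mesothelium on both faces. The EDL works in short bursts and carries the positional Hox code of the hindlimb, the genes by which cells keep a record of where along the body they arose.

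All 6 arrays carried the signals of skeletal muscle. Acta1, skeletal muscle actin, read 40124, 35246 and 35844 in the diaphragm and 54404, 43181 and 40664 in the EDL, and Ckm, muscle creatine kinase, read 39862, 34867 and 35354 in the diaphragm and 51883, 42507 and 40636 in the EDL. The EDL arrays lay above the diaphragm arrays in both, but neither gene passed the test (log2 -0.30 and -0.29, adjusted p = 0.166 and 0.161), and quantile normalization turned both differences (log2 0.05 for Acta1 and 0.05 for Ckm). Over the probe sets tested, control diaphragm arrays correlated with each other at 0.967 to 0.975 (Pearson's r across probe sets, which are not independent), the first and second EDL arrays at 0.982, the third EDL array with the other two at 0.953 to 0.959, and arrays of different muscles at 0.872 to 0.910. The third EDL control array stood apart in markers of other cells: the summed signal of 25 macrophage markers was 5035 there against 8734 and 11996 on the other EDL arrays, and that of 17 fibroblast markers was 14233 against 23523 and 28387. Among the EAMG arrays used later, the second EDL array stood apart in its slow fibre genes: 12 of them summed to 336435, against 142745 and 159128 on the other EDL EAMG arrays and 238089 to 276479 on the DIA EAMG arrays. The EAMG counts and medians below are given with and without it. The 3' to 5' signal ratio of GAPDH, a measure of RNA integrity, was 1.24 ± 0.0733 (SD, n = 3) in the diaphragm and 1.14 ± 0.0830 (SD, n = 3) in the EDL. The difference did not pass a two-sided exact permutation test (n = 3 per muscle, p = 0.3, where 0.1 is the smallest p that 3 against 3 arrays allow). The 12 poly-A control probe sets averaged 14728 ± 1544 on the diaphragm arrays and 21557 ± 5515 (SD, n = 3) on the EDL arrays. What this means for the amount of muscle RNA on the arrays was not tested. In EAMG, the GAPDH ratio was 2.66 on the third DIA array and 1.13 to 1.23 on the other DIA and EDL arrays. The poly-A mean was 800 on the second DIA EAMG array and 13472 to 19777 on the other DIA and EDL EAMG arrays. What this means for the EAMG values was not tested.

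Of 31042 probe sets, 10846 had a signal of at least 400 on 1 or more arrays and were tested. They stand for 7052 genes. In limma, 1320 probe sets (12.2%) were higher in the diaphragm and 1152 (10.6%) were higher in the EDL at an adjusted p under 0.05, together 22.8%. Counted by gene, each by its brightest probe set, 963 genes (13.7%) were higher in the diaphragm and 694 (9.84%) in the EDL, and the gene lists below are read against these shares. On all 2472 probe sets called, the 3 arrays of one muscle lay above the 3 of the other; of all probe sets tested, 22.3% lay so in favour of the diaphragm and 20.8% in favour of the EDL. The median log2 difference (diaphragm minus EDL, here and throughout) over all probe sets was 0.02. A difference of at least 2-fold was reached by 472 called probe sets higher in the diaphragm (4.35%) and 316 higher in the EDL (2.91%), together 7.27%. The counts depended on single arrays: 1488 probe sets were called without the first DIA array, 1630 without the second, 1398 without the third, 1384 without EDL array 1 and 1586 without the second, but 2612 without the third EDL array. Of 146 called genes named by rule below, 101 kept the call whichever array was left out, and 34, 32 and 31 lost the call without DIA arrays 1, 2 and 3 and 35, 23 and 10 without EDL arrays 1, 2 and 3. With no signal minimum, where all 31042 probe sets were tested, 61 of the 146 kept the call and 85 lost it. The lists then held fewer calls: in favour of the diaphragm, 0 macrophage markers instead of 12, 0 heat shock genes instead of 10, 5 genes of fat uptake and oxidation instead of 33, 2 matrix genes instead of 15, 7 slow fibre genes instead of 10 and 5 mesothelium markers instead of 8. In favour of the EDL, 1 calcium gene was called instead of 19, 1 fast fibre gene instead of 8 and 8 glycolysis genes instead of 24. The least stable named calls were those of Cpt1b, Klf9, Mcu, Me3 and Sox18, lost whichever of the 6 arrays was left out, and of Aco1, Adipoq, Atp5me, Becn1, Casq1, Cidec, Cox5a, Glul, Jph2, Mybpc1, Neb, Tnnt3 and Tpm1, kept in 1 of the 6 fits that left out an array.

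**Figure D1:**
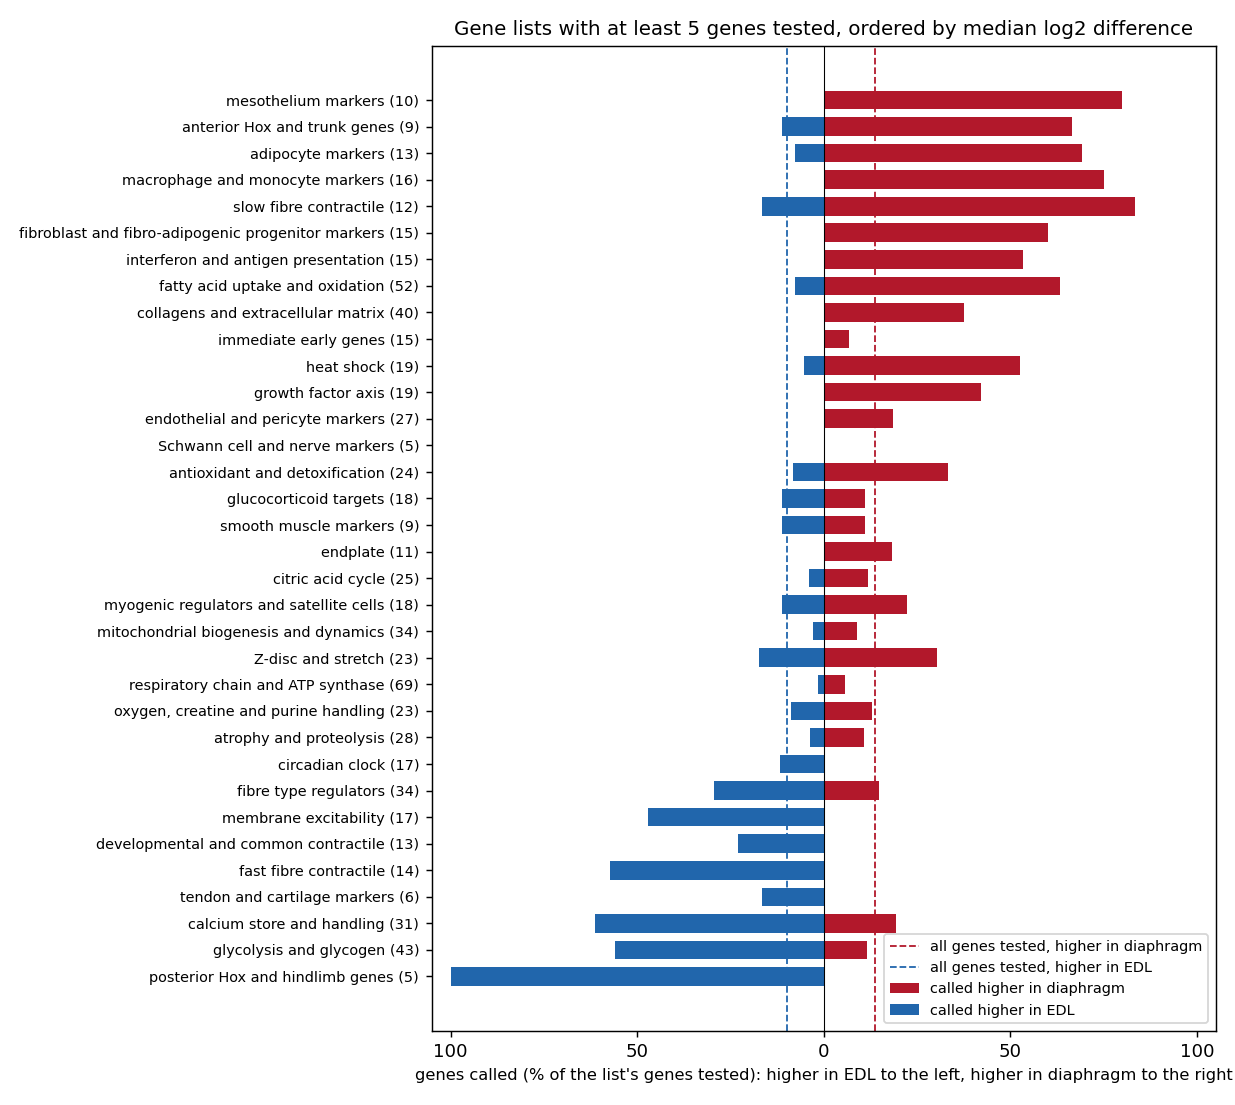
Share of the genes tested (%) that limma called higher in the control diaphragm (red, to the right) and higher in the control EDL (blue, to the left) in each of 34 gene lists, with the number of genes tested in brackets; dashed lines mark the shares over all 7052 genes, 13.7% and 9.84%. Lists are ordered by their median log2 difference, from mesothelium markers (2.69) to posterior Hox genes (-3.73).

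The slow fibre programme was higher in the diaphragm in 10 of its 12 genes, and 2 were higher in the EDL, with a median log2 difference of 1.12. Thin filament genes led. Tpm3, slow tropomyosin, read 15953, 13483 and 14959 in the diaphragm and 1543, 1950.4 and 1631 in the EDL, 8.69-fold higher in the diaphragm (log2 3.12 ± 0.13, SE, adjusted p = 1.07e-04). The groups lay far apart on every array. Tnnt1, slow troponin T, read 25210.4, 26054 and 26430.5 in the diaphragm and 6353, 7243 and 6820.1 in the EDL (3.81-fold, adjusted p = 2.05e-04). Its partners in the troponin complex were higher too: Tnnc1, troponin C of slow and heart muscle, by 2.76-fold (adjusted p = 5.51e-04) and Tnni1, slow troponin I, by 2.27-fold (adjusted p = 0.0012). The slow light chains of myosin followed, Myl3 by 2.62-fold and Myl2 by 2.08-fold, with Lmod2, a thin filament length factor, at 2.80-fold, Myoz2, a calcineurin binding protein of the Z-disc, at 2.06-fold and Smpx at 1.61-fold (adjusted p from 5.51e-04 to 0.0081).

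Myh7, the slow myosin heavy chain, read 38772, 40879 and 40087 in the diaphragm and 22637, 26168 and 15533 in the EDL, 1.90-fold higher in the diaphragm (log2 0.93 ± 0.20, SE, adjusted p = 0.0178). The EDL arrays were the more scattered, the third being the lowest, and the call was lost without any 1 diaphragm array. A dimmer Myh7 probe set differed more, 7017 ± 1054 against 1388 ± 295 (mean signal ± SD, n = 3; log2 2.35 ± 0.20, SE, adjusted p = 7.12e-04), so the probe sets differ in the size of the change and share its direction. The gap between them was not tested. For Tpm3, 6 probe sets were higher in the diaphragm, with log2 differences from 1.03 to 3.12, and 1 was higher in the EDL (log2 -0.75, adjusted p = 0.0133); which transcript each reads was not tested. The exceptions in the list were Myh6, the heart and jaw myosin alpha, which read 123, 91.8 and 134 in the diaphragm and 538, 606 and 309 in the EDL and was 4.05-fold higher in the EDL (adjusted p = 0.0042), and Mybpc1, slow myosin binding protein C, 1.41-fold higher in the EDL (adjusted p = 0.036), a call kept in 1 of the 6 fits that left out an array. Myh6 lies beside Myh7 and is close to it in sequence, so which of them its probe set reads is uncertain.

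Promoters of 4 genes that the contrast turns on are shown because they carry its opposite ends: Myh7, Tnnt1 and Casq2 higher in the diaphragm, Myh4 higher in the EDL. Each is the 250 bases before the start of the gene in RefSeq (rat build GRCr8), read on the gene's strand; Myh7 lies at chr15:32438195-32438444 (minus strand), Tnnt1 at chr1:78348785-78349034 (plus), Casq2 at chr2:192214306-192214555 (plus) and Myh4 at chr10:52421898-52422147 (plus). Capitals mark matches, on either strand, to TATAAA, the TATA box, to CAGCTG, an E-box that myogenic factors can bind, to CTAAAAATA, a form of the MEF2 motif, and to AAGGTCA, the core of the motif of the estrogen related receptors. None of the matches shown overlap.
Myh7: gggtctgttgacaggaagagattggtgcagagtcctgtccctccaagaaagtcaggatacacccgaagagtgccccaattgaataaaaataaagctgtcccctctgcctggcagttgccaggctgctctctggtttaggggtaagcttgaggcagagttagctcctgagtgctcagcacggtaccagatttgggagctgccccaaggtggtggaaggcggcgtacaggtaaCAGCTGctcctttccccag
Tnnt1: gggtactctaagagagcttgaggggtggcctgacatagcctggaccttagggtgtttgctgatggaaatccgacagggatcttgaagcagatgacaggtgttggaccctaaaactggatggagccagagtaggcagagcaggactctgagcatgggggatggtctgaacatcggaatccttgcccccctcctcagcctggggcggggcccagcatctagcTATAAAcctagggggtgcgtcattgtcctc
Casq2: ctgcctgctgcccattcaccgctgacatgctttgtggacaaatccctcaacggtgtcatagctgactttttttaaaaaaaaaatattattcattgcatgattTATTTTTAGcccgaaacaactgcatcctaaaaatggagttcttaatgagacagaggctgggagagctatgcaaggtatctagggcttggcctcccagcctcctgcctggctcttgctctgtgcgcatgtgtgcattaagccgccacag
Myh4: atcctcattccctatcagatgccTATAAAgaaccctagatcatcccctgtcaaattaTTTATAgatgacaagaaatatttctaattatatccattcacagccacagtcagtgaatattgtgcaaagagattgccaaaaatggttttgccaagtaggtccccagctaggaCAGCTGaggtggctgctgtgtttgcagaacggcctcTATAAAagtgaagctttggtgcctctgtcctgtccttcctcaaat
Over all 33469 promoter windows of the table, 12.9% hold TATAAA, 11.97% CAGCTG, 0.442% CTAAAAATA and 3.99% AAGGTCA. The Myh4 window holds TATAAA at 3 places and CAGCTG at 1, the Myh7 window CAGCTG at 1, the Tnnt1 window TATAAA at 1 and the Casq2 window CTAAAAATA at 1. Windows were found for 5939 of the 7052 genes tested. Among them, CAGCTG was in 3 of the 8 slow contractile genes called higher in the diaphragm, in both slow contractile genes called higher in the EDL (2 of 2), in 1 of the 6 fast contractile genes called higher in the EDL, in 0 of the 5 calcium genes called higher in the diaphragm, in 4 of the 14 called higher in the EDL and in 701 of the 5939 (11.8%). A match is a string of letters and not a bound site.

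The fast fibre programme was higher in the EDL in 8 of its 14 genes and in none was it higher in the diaphragm (median log2 difference -0.44). Myh4, the myosin of the fastest IIb fibres, read 4227, 11564 and 7283 in the diaphragm and 45958, 37864 and 37973 in the EDL, 5.70-fold higher in the EDL (log2 -2.51 ± 0.34, SE, adjusted p = 0.0041). The diaphragm arrays spread widely and all lay below the EDL arrays. The other adult fast myosins showed no such gap. Myh1 of IIx fibres read 18819, 21264 and 19035 in the diaphragm and 21323, 19476 and 18385 in the EDL (log2 -0.00 ± 0.11, SE, adjusted p = 0.995) and Myh2 of IIa fibres read 36066, 33945 and 34177 in the diaphragm and 43046, 37482 and 33589 in the EDL (log2 -0.12 ± 0.12, SE, adjusted p = 0.5). On these 2 genes the groups overlapped, neither has a settled direction (log2 0.10 for Myh1 and 0.18 for Myh2 after quantile normalization), and none of the 5 Myh1 probe sets was called. Myosin genes lie side by side and share long stretches of sequence, so cross-reading between them was possible and was not tested.

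Next to Myh4 the EDL was higher in Mylk2, the skeletal myosin light chain kinase, which read 2496, 2789.7 and 2883 in the diaphragm and 9278, 7735 and 8059 in the EDL (3.07-fold, adjusted p = 5.51e-04). Mybpc2, fast myosin binding protein C, was higher by 2.12-fold (adjusted p = 0.0028) and Actn3, the alpha-actinin of fast Z-discs, by 1.86-fold (adjusted p = 0.0056). Smaller differences were called for Myoz1 (1.46-fold), Myoz3 (1.42-fold), Tnnt3, fast troponin T (1.36-fold), and Tpm1 (1.36-fold), with adjusted p from 0.013 to 0.0416. The fast light chains Myl1 and Myl11, the fast troponins Tnni2 and Tnnc2, Myh1 and Myh2 did not pass, and the largest log2 difference among them was that of Myl1 (-0.40, adjusted p = 0.0595). Without any 1 DIA array or the first EDL array, 4 or 5 of the 14 were called instead of 8, and quantile normalization moved the list's median to -0.13. Of 13 contractile genes common to all fibres or to development, 3 were higher in the EDL and none in the diaphragm, with a median of -0.30 (1 call without the first DIA or the first or second EDL array). Myh3, the embryonic myosin, was dim and read 14.97, 82.9 and 11.6 in the diaphragm and 432, 496 and 188 in the EDL (14.1-fold, adjusted p = 0.0151, 3.39-fold once 100 was added to each signal). Myom2, an M-band protein of fast fibres, was 1.69-fold and Neb, nebulin, 1.30-fold higher in the EDL (adjusted p = 0.0076 and 0.0491).

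**Figure D2:**
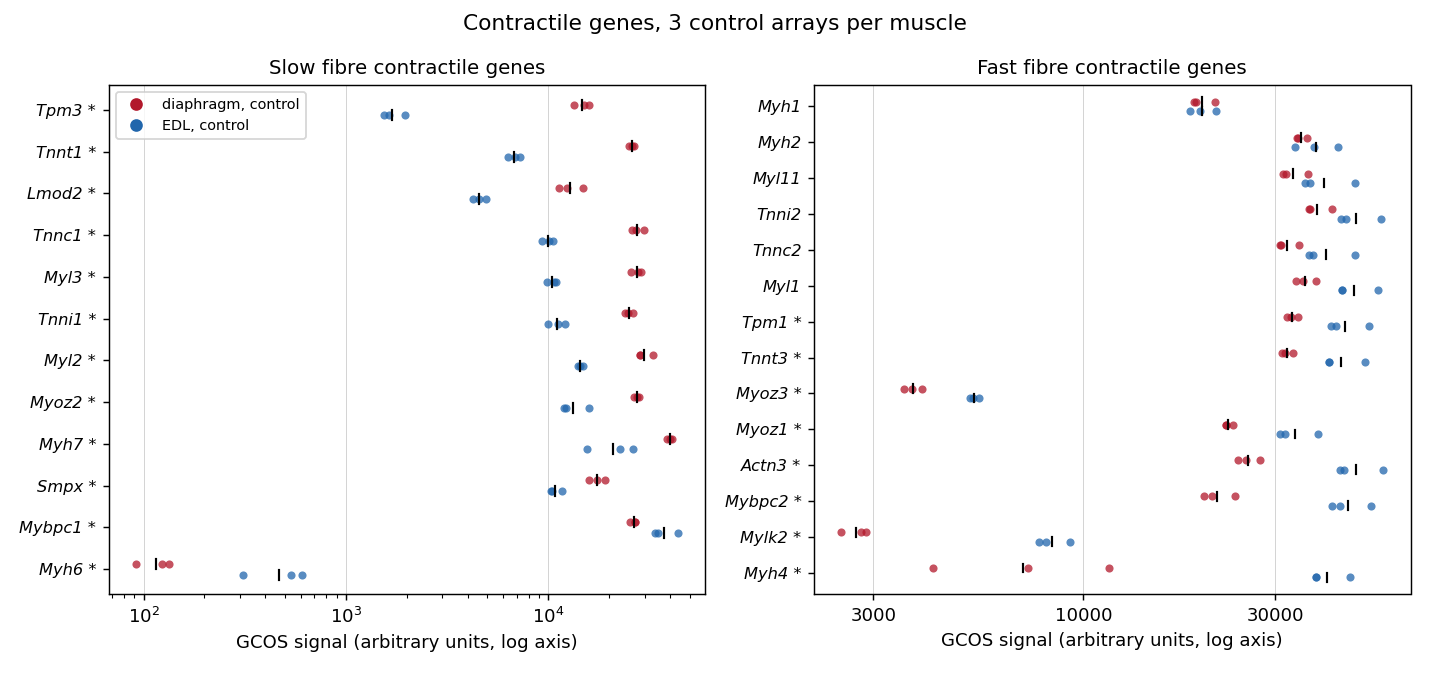
GCOS signal (arbitrary units, log axis) of the 12 slow and 14 fast contractile genes on each of the 3 control diaphragm arrays (red) and 3 control EDL arrays (blue), with black ticks at the geometric mean of each muscle and an asterisk at genes called by limma. Red lies to the right of blue in 10 slow genes. Blue lies to the right of red in Myh6, Mybpc1 and 11 fast genes, 8 of which were called.

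Calcium handling split along the same line. Of 31 genes of the sarcoplasmic reticulum, the calcium store, and of its coupling to the membrane, 6 were higher in the diaphragm and 19 in the EDL (median log2 difference -0.54). The largest difference of any gene named here was that of Sln, sarcolipin, a small inhibitor of the calcium pump, which read 27256, 22509 and 24223 in the diaphragm and 804, 387 and 363 in the EDL, 50.9-fold higher in the diaphragm (log2 5.67 ± 0.30, SE, adjusted p = 2.05e-04). Pln, phospholamban, the inhibitor of the slow pump, read 2559, 2595 and 2670.2 in the diaphragm and 243, 199 and 193 in the EDL (12.4-fold, adjusted p = 9.24e-05). The muscles did not overlap in either inhibitor. A second Pln probe set gave 736 against 268 (mean signal, log2 1.49, adjusted p = 0.0035).

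Casq2, the slow and cardiac form of the store's calcium buffer, read 7802, 8393 and 8096 in the diaphragm and 1151, 1269 and 981 in the EDL (7.18-fold higher in the diaphragm, adjusted p = 1.13e-04). Ryr3, a release channel isoform found in few adult muscles, read 2684, 2530.4 and 2269.5 in the diaphragm and 154, 134 and 75.2 in the EDL, 21.5-fold higher in the diaphragm (adjusted p = 2.70e-04, and 11.9-fold with 100 added to each signal). The other 2 genes higher in the diaphragm, named like the next 6 genes after their values were seen, were Atp2a2, the slow calcium pump, at 2.47-fold (adjusted p = 0.0014) and Rcan1, a calcineurin inhibitor, at 3.43-fold (adjusted p = 0.0076). On the other side, Pvalb, the cytosolic calcium buffer parvalbumin, read 15062, 18671 and 16482 in the diaphragm and 45532, 35593 and 37207 in the EDL and was 2.35-fold higher in the EDL (adjusted p = 0.0023). Casq1, the fast calcium buffer, was 1.45-fold higher in the EDL (adjusted p = 0.0205), while its pump Atp2a1 (log2 -0.40 ± 0.14, SE, adjusted p = 0.0811) and the main release channel Ryr1 (log2 -0.44 ± 0.17, SE, adjusted p = 0.112) did not pass, although the arrays of the muscles did not overlap for Atp2a1. The junctional proteins Jph1 and Jph2, which hold the store against the membrane, were 1.82-fold and 1.75-fold higher in the EDL (adjusted p = 0.0049 and 0.0317). For Ppp3cb, a calcineurin subunit, 2 probe sets were higher in the EDL and 1 in the diaphragm. The 6 genes higher in the diaphragm were called whichever array was left out. Calls in favour of the EDL then numbered 10 to 19 instead of 19, 12 without the first and 11 without the third DIA array, 10 without the first and 11 without the second EDL array.

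**Figure D3:**
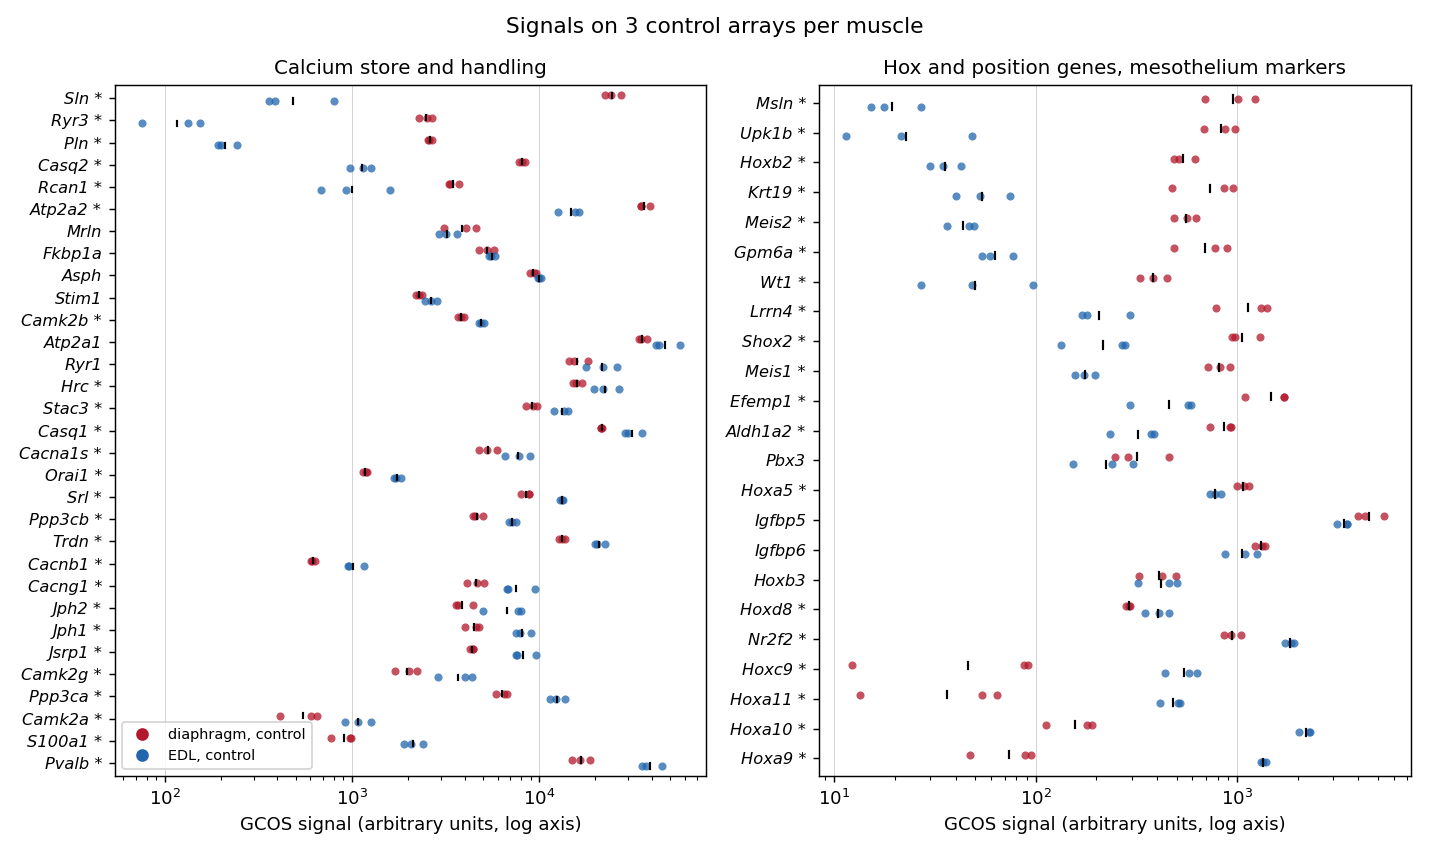
GCOS signal (arbitrary units, log axis) on each control array of the 31 calcium handling genes (left) and of Hox, position and mesothelium genes (right), diaphragm in red and EDL in blue, with black ticks at the geometric means and an asterisk at genes called by limma. Sln, Ryr3, Pln and Casq2 lie far to the right in the diaphragm, from 7.18-fold to 50.9-fold, and Hoxa9, Hoxa10, Hoxa11 and Hoxc9 far to the right in the EDL.

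Genes of membrane excitability were higher in the EDL in 8 of 17 cases and in none in the diaphragm (median -0.26). They were led by Kcnc4, a potassium channel, which read 1005, 1043 and 920.3 in the diaphragm and 3383, 2875 and 3367 in the EDL (3.24-fold, adjusted p = 4.28e-04). Atp1b2, a beta subunit of the sodium pump, was 2.97-fold higher (adjusted p = 6.01e-04), Kcnj11, the pore of the KATP channel, 2.67-fold (adjusted p = 0.003) and Slc8a3, a sodium calcium exchanger, 2.36-fold (adjusted p = 0.0098). Without any 1 of the 3 DIA arrays, or without the second EDL array, 5 of the 17 were called.

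Of 11 genes of the neuromuscular endplate, the site that EAMG attacks, 2 (18.2%, against 13.7% of all genes) were higher in the diaphragm and none in the EDL (median 0.12). With all 18 arrays in 1 fit, 4 were called higher in the diaphragm. Chrnd, the delta subunit of the acetylcholine receptor, read 776, 748 and 951 in the diaphragm and 234, 257 and 286 in the EDL (3.18-fold, log2 1.67 ± 0.14, SE, adjusted p = 7.12e-04), with no overlap of the groups. Dtna, dystrobrevin alpha, was 2.04-fold higher (adjusted p = 0.0028). Chrna1, the alpha subunit, which holds the toxin and antibody binding region and was named after its value was seen, read 529.9, 608 and 689 in the diaphragm and 429.6, 562 and 710.2 in the EDL and overlapped between the muscles (log2 0.12 ± 0.20, SE, adjusted p = 0.696). Of the list, 11 of the 22 genes on the array stayed under the minimum of 400 on all 6 arrays and were not tested.

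Regulators of muscle fate were called in both directions, in the EDL near the share of all genes. Of 18 myogenic and satellite cell genes, 4 (22.2%) were higher in the diaphragm and 2 (11.1%) in the EDL, against 13.7% and 9.84% of all genes. Id3 (2.27-fold, adjusted p = 0.0032) and Id1 (2.01-fold, adjusted p = 0.0186), inhibitors of the myogenic factors, and Heyl, a Notch target, (2.19-fold, adjusted p = 0.0037) were higher in the diaphragm. Myod1, the myogenic factor that prevails in fast muscle, read 985, 910.0 and 1396 in the diaphragm and 2013, 1962 and 3002 in the EDL and was 2.12-fold higher in the EDL (adjusted p = 0.0183); the 2 calls in favour of the EDL fell to 0 without the first or the second DIA array and to 1 without the third DIA, first EDL or second EDL array.

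Of 34 regulators of fibre type, 5 (14.7%) were higher in the diaphragm and 10 (29.4%) in the EDL (median -0.16). The diaphragm count lay near the share of all genes (13.7%), and the EDL count above it (9.84%). Tbx3, a T-box repressor, read 414, 461 and 633 in the diaphragm and 109, 95.6 and 101 in the EDL (4.86-fold, adjusted p = 5.55e-04, and 2.95-fold with 100 added). Prox1, a homeobox factor of slow fibres and also of lymph vessels, read 1093, 1095 and 971 in the diaphragm and 274, 306 and 283 in the EDL (3.66-fold, adjusted p = 2.40e-04). In the EDL, Sox6, a repressor of slow fibre genes, read 798, 839.9 and 1044 in the diaphragm and 2460.0, 2368 and 2063 in the EDL (2.58-fold higher, adjusted p = 0.0016) and Bhlhe41, a basic helix-loop-helix repressor, read 2441, 1356 and 1173 in the diaphragm and 6082, 4289 and 4493 in the EDL (3.11-fold higher, adjusted p = 0.0097). The count in favour of the diaphragm was 3 without the second or the third DIA array or the first or second EDL array.

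Z-disc and stretch genes had 7 of 23 members higher in the diaphragm and 4 in the EDL (2 whichever array was left out), with a median of -0.01 (0.19 after quantile normalization). Fhl2, a LIM protein abundant in heart, read 603, 597 and 613 in the diaphragm and 198, 118 and 146 in the EDL (4.02-fold, adjusted p = 0.0011). Hspb7, a small heat shock protein of heart and muscle, was 3.14-fold higher in the diaphragm (adjusted p = 4.10e-04), Pdlim1 3.01-fold (adjusted p = 0.0019) and Xirp1, a protein of the intercalated disc and of fibre repair, 1.88-fold (adjusted p = 0.012).

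Positional genes of the hind part of the body were higher in the EDL. All 5 posterior Hox genes tested were higher there, with a median log2 difference of -3.73. Hoxa9 read 88.2, 94.5 and 47.4 in the diaphragm and 1390.1, 1336 and 1316 in the EDL (18.4-fold, log2 -4.20 ± 0.26, SE, adjusted p = 3.21e-04). Hoxa10, which patterns the upper limb segment, read 179, 191 and 113 in the diaphragm and 2298, 2032 and 2262 in the EDL (14.01-fold, adjusted p = 2.05e-04). The muscles were far apart in both. Hoxa11 read 13.5, 54.4 and 64.3 in the diaphragm and 506, 415 and 521 in the EDL, and Hoxc9 read 12.2, 91.6 and 87.9 in the diaphragm and 578, 632 and 440.0 in the EDL. The diaphragm signals were close to the bottom of the scale, so the size of these folds rests on how dim signals are treated: with 100 added to each signal, Hoxa9 was 8.25-fold, Hoxa10 8.88-fold, Hoxa11 4.07-fold and Hoxc9 4.05-fold higher in the EDL, and the median of the list -2.03. Another 9 of the 14 posterior genes on the array did not reach 400. Hoxa9, Hoxa10, Hoxa11 and Hoxc9 reached it on EDL arrays alone, so the count partly restates the signal minimum. Over all 14, tested or not, the EDL arrays lay above the diaphragm arrays in 6 and below in 0. The shares over all probe sets tested were 20.8% and 22.3%. Without the first or the second EDL array, 3 of the 5 were called.

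Anterior Hox and trunk genes went the other way in 6 of the 9 tested, with 1 higher in the EDL (median 2.22, or 1.64 with 100 added). Of the list, 9 of the 25 genes on the array reached 400. Hoxb2, Meis2 and Wt1, which also stands among the mesothelium markers below, did so on diaphragm arrays alone, so the count partly restates the signal minimum. Over all 25, tested or not, the diaphragm arrays lay above the EDL arrays in 10 and below in 4. The shares over all probe sets tested were 22.3% and 20.8%. Hoxb2, a gene of the anterior body axis, read 513, 621 and 484 in the diaphragm and 42.7, 34.7 and 29.999 in the EDL (15.1-fold, adjusted p = 1.07e-04, and 4.69-fold with 100 added). Meis2, a Hox cofactor, read 628, 562 and 486 in the diaphragm and 49.6, 46.6 and 36.2 in the EDL (12.7-fold, adjusted p = 1.13e-04, and 4.56-fold with 100 added). Shox2 was 4.94-fold (adjusted p = 0.0036) and Wt1, a factor of mesothelium and of the developing diaphragm, 7.64-fold higher in the diaphragm (adjusted p = 0.0054), or 3.65-fold and 3.13-fold with 100 added. The 1 gene of this list higher in the EDL, named after its value was seen, was Nr2f2, an orphan nuclear receptor (1.94-fold, adjusted p = 0.0027).

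Mesothelium markers were higher in the diaphragm in 8 of the 10 tested (median 2.69, or 1.82 with 100 added) and in no case in the EDL. Whichever array was left out, 8 were called. Msln, Upk1b, Wt1, Lrrn4, Krt19, Gpm6a and Aldh1a2 reached 400 on diaphragm arrays alone, so these counts partly restate the signal minimum. Over all 17 markers on the array, tested or not, the diaphragm arrays lay above the EDL arrays in 13 and below in 0. The shares over all probe sets tested were 22.3% and 20.8%. Msln, mesothelin, read 1224, 689 and 1011 in the diaphragm and 15.2, 17.6 and 26.97 in the EDL (49.003-fold, adjusted p = 1.74e-04, and 8.77-fold with 100 added). Upk1b, a uroplakin, read 976, 682 and 868 in the diaphragm and 48.4, 11.4 and 21.3 in the EDL (36.6-fold, adjusted p = 0.0011, and 7.41-fold with 100 added). Krt19, an epithelial keratin, was 13.5-fold and Gpm6a 11.02-fold higher (adjusted p = 7.72e-04 and 5.43e-04), or 5.39-fold and 4.88-fold with 100 added. The 17 markers on the array summed to 11203 to 15459 on the diaphragm arrays and 5126 to 6491 on the EDL arrays. Igfbp5 alone read 3958 to 5333 on the diaphragm arrays and 3133 to 3524 on the EDL arrays, so the EDL sums rest largely on it. In muscle pieces like these, fewer cells of a type and less RNA per cell cannot be told apart.

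Markers of the organs that lie against the diaphragm were dim. None of the 8 lung epithelium markers reached 400 on any control array; Sftpc, surfactant protein C, stayed between 57.0 and 141. Of 14 liver markers, Alb, albumin, was the 1 that did: it read 929.5, 5384 and 217 in the diaphragm and 103, 61.2 and 143 in the EDL and did not pass the test (adjusted p = 0.061), the second diaphragm array being far above the rest. It was called without the third DIA array. Of 11 exocrine pancreas markers, Cpa1, carboxypeptidase A1, reached 400 and read 683, 543 and 571 in the diaphragm and 162, 163 and 321 in the EDL (2.92-fold, adjusted p = 0.0101), while the highest of the others was 141. Amy1, an amylase, read 1594, 1388 and 1804 in the diaphragm and 82.6, 70.01 and 89.7 in the EDL (19.7-fold higher in the diaphragm, adjusted p = 9.24e-05, and 9.34-fold with 100 added).

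Fuel genes parted by pathway. Of 43 genes of glycolysis and glycogen metabolism, 24 were higher in the EDL and 5 in the diaphragm (median -0.56). Slc16a3, the lactate exporter MCT4, read 1972, 2829 and 2699 in the diaphragm and 12414, 12507 and 13954 in the EDL (5.24-fold higher in the EDL, log2 -2.39 ± 0.16, SE, adjusted p = 4.26e-04). Gpt2, mitochondrial alanine aminotransferase, read 182, 326 and 249.5 in the diaphragm and 1329.7, 1391 and 1250.1 in the EDL (5.39-fold, adjusted p = 7.83e-04). Fbp2, muscle fructose bisphosphatase, was 4.13-fold and Gpd2, the mitochondrial arm of the glycerol phosphate shuttle, 3.81-fold higher in the EDL (adjusted p = 2.05e-04 and 0.0021). Lactate genes fell on opposite sides; the next 3 genes were named after their values were seen. Ldha, the muscle form of lactate dehydrogenase, was 1.71-fold higher in the EDL (adjusted p = 0.004), and Ldhb, the heart form, read 30889, 29303 and 28868 in the diaphragm and 9658, 11482 and 9726 in the EDL and was 2.89-fold higher in the diaphragm (adjusted p = 5.51e-04). Slc16a1, the transporter MCT1, was 2.26-fold higher in the diaphragm (adjusted p = 0.0086). Leaving out 1 array kept 20 to 24 calls in favour of the EDL; those in favour of the diaphragm were 3 without the second or the third DIA or the first or second EDL array.

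Fat uptake and oxidation leaned to the diaphragm in 33 of 52 genes, with 4 higher in the EDL (median 0.71). Lpl, lipoprotein lipase, which frees fatty acids at the vessel wall, read 18755, 20026 and 22289 in the diaphragm and 4839.5, 5476 and 4818 in the EDL (4.03-fold, adjusted p = 2.41e-04). Bdh1, which uses ketone bodies, read 427, 386 and 564 in the diaphragm and 12.05, 43.4 and 44.6 in the EDL (15.9-fold, adjusted p = 0.0031, and 4.18-fold with 100 added). Fabp3, the fatty acid carrier of heart and muscle, named after its value was seen, read 28893, 23949 and 29112 in the diaphragm and 9749, 9672 and 13648 in the EDL (2.50-fold, adjusted p = 0.0033). Cpt1b, the muscle gate for fatty acids into mitochondria, likewise named, differed by 1.35-fold (adjusted p = 0.0373). Against the trend, Acsl6, an acyl-CoA synthetase, read 634, 605 and 723 in the diaphragm and 3644, 3359.8 and 3818 in the EDL (5.52-fold higher in the EDL, adjusted p = 1.56e-04), and Ucp3, a mitochondrial uncoupling protein, read 498, 331 and 1044 in the diaphragm and 1226, 1959.6 and 2761 in the EDL (3.38-fold, adjusted p = 0.0369, kept in 2 of the 6 fits that left out an array). The 33 calls became 19 without the first DIA array and 21 without the third DIA, the first EDL or the second EDL array. The EDL calls fell to 2 without the first or second DIA or the second or the third EDL array. Promoter windows were found for 25 of the 33 genes higher in the diaphragm. AAGGTCA was in 0 of them, in 0 of the 4 windows of genes higher in the EDL and in 0 of the 11 of those not called. The share over the 5939 windows of tested genes was 2.21% (131), so low that so few windows cannot set these groups apart.

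Few genes of the mitochondrial core differed. Of 69 genes of the respiratory chain and ATP synthase, 4 were higher in the diaphragm and 1 in the EDL, under the shares of all genes (13.7% and 9.84%), and the median was -0.02. Quantile normalization turned the median (0.08) and gave 7 and 1 calls. Differences were small: Cox6a1, the non-muscle form of a cytochrome oxidase subunit, 1.58-fold, Atp5me 1.58-fold and Atp5if1, the inhibitor of ATP synthase, 1.49-fold higher in the diaphragm (adjusted p = 0.0142, 0.0356 and 0.0135), and Cox5a 1.59-fold higher in the EDL (adjusted p = 0.0371). Leaving out 1 array gave 1 to 4 and 0 to 1 calls. Of 25 citric acid cycle genes, 3 were higher in the diaphragm and 1 in the EDL (median 0.07). Idh1, the cytosolic isocitrate dehydrogenase, was 1.83-fold, Aco1, cytosolic aconitase, 1.40-fold and Me3 1.29-fold higher in the diaphragm, whereas Idh3a, the subunit that works in the cycle itself, read 6173, 6751 and 6822 in the diaphragm and 12523, 12442 and 13521 in the EDL and was 1.95-fold higher in the EDL (adjusted p = 0.0016). Leaving out 1 array kept 1 or 2 of the 3 calls in favour of the diaphragm. Of 34 genes of mitochondrial biogenesis and dynamics, 3 were higher in the diaphragm and 1, Ucp3, in the EDL; Slc25a5, an adenine nucleotide carrier, led at 2.01-fold (adjusted p = 0.0024), followed by Mcu, the calcium uniporter, (1.45-fold) and Phb2, a prohibitin (1.42-fold). In this list 1 or 2 of the 3 calls were kept when 1 array was left out.

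Genes for oxygen, creatine and purine handling numbered 3 higher in the diaphragm and 2 higher in the EDL of 23 (median -0.03, or 0.09 after quantile normalization). Ak4, a mitochondrial adenylate kinase, read 537, 603 and 447 in the diaphragm and 86.3, 87.2 and 45.3 in the EDL (7.51-fold, adjusted p = 0.0011, and 3.64-fold with 100 added). Hif1a (1.39-fold) and Nnt (1.34-fold) were also higher in the diaphragm, and Ampd1, muscle AMP deaminase, was 1.44-fold higher in the EDL (adjusted p = 0.0104); without the first DIA, first EDL or second EDL array 1 of the 3 diaphragm calls was kept, and the EDL calls were 1 without the first or second DIA or the first or second EDL array. Antioxidant genes were higher in the diaphragm in 8 of 24 cases and in the EDL in 2 (median 0.25; 1 EDL call without the first or the third DIA or the first or second EDL array). Gpx1, glutathione peroxidase, read 19202, 16190.4 and 17823 in the diaphragm and 4755, 5145 and 7159 in the EDL (3.16-fold, adjusted p = 0.0016). Gsta4, a glutathione transferase, was 3.08-fold, Gpx3, the secreted peroxidase, 2.26-fold and Nqo1, a quinone reductase, 1.93-fold higher in the diaphragm (adjusted p = 6.39e-04, 0.0086 and 0.0077).

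**Figure D4:**
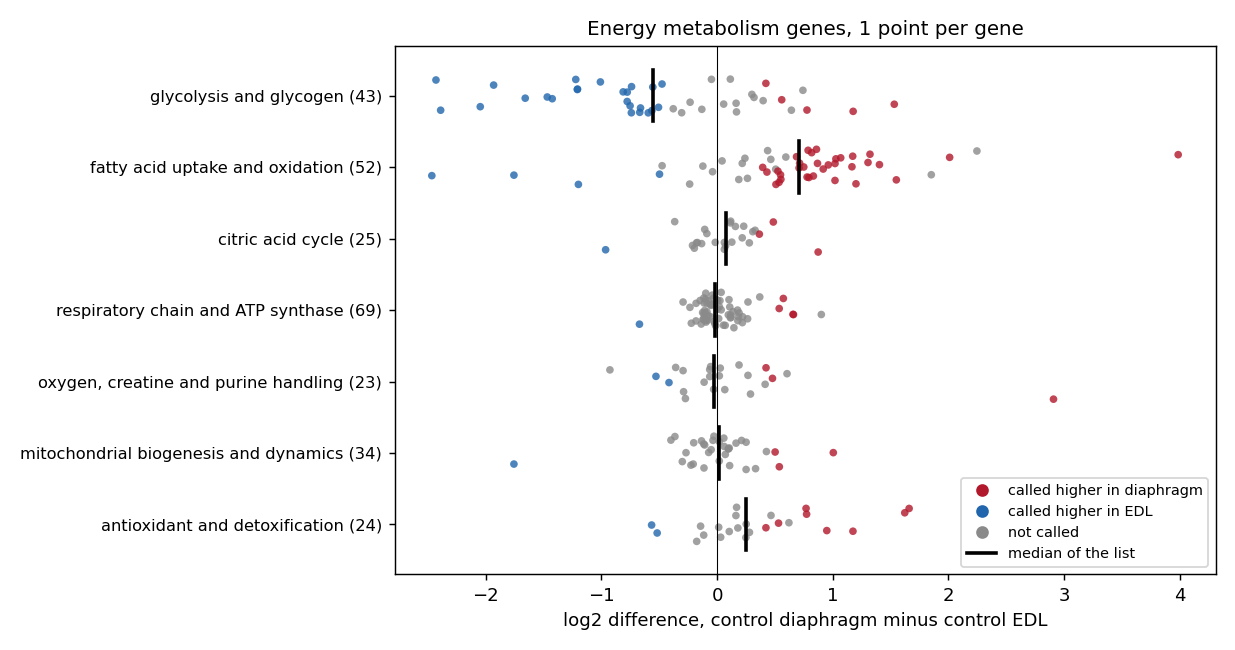
Log2 difference (control diaphragm minus control EDL) of each gene in 7 lists of energy metabolism, with genes called higher in the diaphragm in red, in the EDL in blue and not called in grey, and a black line at the median of each list; the vertical scatter within a row has no meaning. Glycolysis lies mostly left of 0 (median -0.56), fat uptake and oxidation mostly right (0.71), and the respiratory chain around 0 (-0.02, or 0.08 after quantile normalization).

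Of 40 collagen and matrix genes, 15 were higher in the diaphragm, none in the EDL, and 25 did not pass (median 0.54). Among those that did not pass were both chains of collagen I, Col1a1 (log2 0.01, adjusted p = 0.973) and Col1a2 (log2 0.27, adjusted p = 0.114), named after their values were seen. Fbln1, fibulin 1, read 359, 282 and 514 in the diaphragm and 20.7, 40.4 and 13.2 in the EDL (16.8-fold, adjusted p = 0.0015, and 3.83-fold with 100 added). Col14a1, a collagen that binds fibril surfaces, read 3299, 2980.5 and 5198 in the diaphragm and 1084, 1038 and 548 in the EDL (4.36-fold, adjusted p = 0.0058). Loxl1, which cross-links elastin, was 3.97-fold and Ogn, osteoglycin, 2.94-fold higher (adjusted p = 0.0152 and 7.57e-04). Of 15 markers of fibroblasts and fibro-adipogenic progenitors, 9 were higher in the diaphragm and none in the EDL (median 1.07). C3, Clec3b, Sfrp1, Sfrp2, Sfrp4 and Lox reached 400 on diaphragm arrays alone, so these counts partly restate the signal minimum. Over all 17 markers on the array, tested or not, the diaphragm arrays lay above the EDL arrays in 13 and below in 0. The shares over all probe sets tested were 22.3% and 20.8%. Mfap4 read 2166.2, 2179 and 2365 in the diaphragm and 294, 413 and 296 in the EDL (6.76-fold, adjusted p = 2.31e-04), and the complement genes C3 and C1s were 8.63-fold and 3.28-fold and Sfrp2, a Wnt inhibitor, 4.71-fold higher (adjusted p = 0.004, 0.0092 and 6.30e-04; 3.48-fold for C3 and 2.96-fold for Sfrp2 with 100 added). Without the third EDL array, on which fibroblast markers were lowest, 15 matrix genes and 9 fibroblast markers were called, as with it. Without the third DIA array, 9 matrix genes were called. Of 6 tendon and cartilage markers, 1 was called: Ecrg4, 1.74-fold higher in the EDL (adjusted p = 0.04; not called without the second or the third DIA or the first EDL array).

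Adipocyte markers were higher in the diaphragm in 9 of 13 cases and in the EDL in 1 (median 2.01; 1.40 with 100 added). Adipoq, Plin1, Cidec, Cidea, Ucp1, Thrsp, Pck1 and Agpat2 reached 400 on diaphragm arrays alone, so these counts partly restate the signal minimum. Over all 14 markers on the array, tested or not, the diaphragm arrays lay above the EDL arrays in 9 and below in 1. The shares over all probe sets tested were 22.3% and 20.8%. Cidea, a lipid droplet protein of brown fat, read 1464, 1187 and 1323 in the diaphragm and 147, 149 and 134 in the EDL (9.21-fold, adjusted p = 9.24e-05, and 5.83-fold with 100 added), even across its arrays. Thrsp, a gene of fatty acid synthesis, read 915, 3226 and 622 in the diaphragm and 197, 251 and 78.3 in the EDL (7.80-fold, adjusted p = 0.024, and 5.08-fold with 100 added), Cidec read 213, 449 and 345 in the diaphragm and 16.1, 144 and 55.8 in the EDL (6.34-fold, adjusted p = 0.0444, and 2.59-fold with 100 added) and Pck1 read 179, 1443 and 389 in the diaphragm and 68.01, 120.1 and 80.7 in the EDL (5.34-fold, adjusted p = 0.0497, and 3.16-fold with 100 added). In these 3 genes the second diaphragm array was the highest. The defining gene Adipoq, adiponectin, read 521, 1947 and 967 in the diaphragm and 312, 350.0 and 103 in the EDL (4.44-fold, adjusted p = 0.0461), again highest on that array and named after its value was seen. The calls fell to 5 without the third DIA array and to 4 without the first EDL array. The part of fat cells in the differences of Lpl and Fabp4, which stand in both this list and that of fat uptake, was not tested.

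Immune cell markers were higher in the diaphragm as well. Of 16 macrophage and monocyte markers tested, 12 were higher in the diaphragm and none in the EDL (median 1.43; 1.07 without the third EDL array). C1qb, RT1-Ba, Folr2, Ccl2 and Gpnmb reached 400 on diaphragm arrays alone, so these counts partly restate the signal minimum. Over all 25 markers on the array, tested or not, the diaphragm arrays lay above the EDL arrays in 22 and below in 0. The shares over all probe sets tested were 22.3% and 20.8%. Lyve1, of tissue macrophages and lymph vessels, read 2519, 2624 and 3324 in the diaphragm and 619, 1076 and 176 in the EDL (5.72-fold, adjusted p = 0.0279). Lyz2, lysozyme, read 3876, 5947 and 4622 in the diaphragm and 1353, 1727 and 757 in the EDL (3.92-fold, adjusted p = 0.007), RT1-Da, an MHC class II chain, read 2506, 2669 and 2122 in the diaphragm and 709, 1026 and 431 in the EDL (3.56-fold, adjusted p = 0.0077) and C1qb, a complement chain, was 4.59-fold higher (adjusted p = 0.0214, and 2.52-fold with 100 added). The third EDL array was the lowest in each. The 25 markers on the array summed to 21867 to 26900.0 on diaphragm arrays. Without the third EDL array 11 were called, without any 1 diaphragm array 5, and without the first EDL array 6. The part of macrophages in the interferon and matrix genes was not tested.

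Of the 15 interferon and antigen presentation genes, 8 were higher in the diaphragm (median 0.97; 3 to 5 calls without any 1 DIA array or the first or second EDL array), led by Cd74, the invariant chain, (2.75-fold, adjusted p = 0.0225) and Ifitm3 (2.63-fold, adjusted p = 7.83e-04), with Ifi27 at 2.32-fold and Bst2 at 2.15-fold. All 3 mast cell markers tested were higher there: Cma1, a chymase, 4.03-fold, Cpa3 3.22-fold and Tpsb2, a tryptase, 1.91-fold (adjusted p = 0.0373, 0.0119 and 0.0314). Without any 1 diaphragm array, 1 was called. Of 19 mast cell and granulocyte markers on the array, these 3 reached 400, each on diaphragm arrays alone. The signal minimum thus let in markers that were high in the diaphragm, and the count partly restates it. Of 17 lymphocyte markers, Jchain, the joining chain of secreted antibodies, was the 1 that reached 400, read 146, 426 and 98.4 in the diaphragm and 59.8, 56.9 and 39.02 in the EDL (3.58-fold, adjusted p = 0.044, and 1.94-fold with 100 added) and lost its call without the first DIA array or any 1 EDL array. The T cell chain Cd3e stayed at 189 or less.

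Of 27 endothelial and pericyte markers, 5 (18.5%, against 13.7% of all genes) were higher in the diaphragm and none in the EDL (median 0.39), and 12 were called with all 18 arrays in 1 fit. The 5 were Lyve1 and Prox1, given above, the fatty acid binding protein Fabp4 (2.04-fold, adjusted p = 0.0051), Apln, apelin, (2.62-fold, adjusted p = 6.05e-04) and Sox18 (1.44-fold, adjusted p = 0.0488). Sox18 was named after its value was seen. Pecam1, a defining endothelial gene also named so, read 689, 736 and 633 in the diaphragm and 615, 511 and 558 in the EDL (adjusted p = 0.125). Without any 1 DIA array or the first EDL array, 3 of the 5 were called. Of 9 smooth muscle markers, Pln was higher in the diaphragm and Synpo2 in the EDL (1.37-fold, adjusted p = 0.0249). The EDL call was lost without the second or the third DIA or the first or second EDL array. None of 5 Schwann cell markers was called; S100b (log2 0.78) and Cnp (log2 0.72) had the largest differences. Red blood cell genes were higher in the diaphragm in 3 of 3: Hbb, beta globin, read 11993, 17499.9 and 11820.2 in the diaphragm and 3181, 4898 and 3269.9 in the EDL (3.65-fold, adjusted p = 0.0028), Hba-a3 was 2.99-fold and Alas2, of haem synthesis, 1.95-fold higher. Blood left in the muscles was not measured.

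Growth and stress genes were higher in the diaphragm in part. Of 19 genes of growth factor pathways, 8 were higher in the diaphragm and none in the EDL (median 0.41; 3 to 5 without any 1 DIA array or the first EDL array). Fgf1 read 1707, 1637 and 1879.9 in the diaphragm and 541, 477 and 589 in the EDL (3.26-fold, adjusted p = 5.13e-04), Igf1, insulin-like growth factor 1, read 2029, 2844 and 2512 in the diaphragm and 1009, 1173 and 741 in the EDL (2.55-fold, adjusted p = 0.006) and its binding protein Igfbp2 was 4.49-fold higher (adjusted p = 0.0163, and 2.46-fold with 100 added). Heat shock genes were higher in the diaphragm in 10 of 19 and in the EDL in 1 (median 0.46; 6 without the third DIA or first EDL array; the EDL call was lost without the first or second DIA array or any 1 EDL array). Hspa1a, the inducible HSP70, read 4926, 6729 and 3636 in the diaphragm and 1449.8, 1638 and 2255 in the EDL (2.82-fold, adjusted p = 0.0092), and Dnajb1 (1.97-fold), Hsph1 (1.85-fold) and Bag3 (1.83-fold) were higher with it.

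Among 28 genes of atrophy and proteolysis, 3 (10.7%) were higher in the diaphragm and 1 (3.57%) in the EDL (median -0.04). Both counts lay under the shares of all genes (13.7% and 9.84%). Cdkn1a, the cell cycle inhibitor p21, read 1616, 2214 and 2587 in the diaphragm and 367, 277 and 422 in the EDL (5.9995-fold, adjusted p = 7.83e-04), Gadd45a was 1.80-fold and Ctsb, cathepsin B, 1.49-fold higher in the diaphragm, and Becn1, beclin 1, 1.31-fold higher in the EDL; without the first DIA or first EDL array 1 of the 3 diaphragm calls was kept. Of 18 glucocorticoid targets 2 (11.1%) went each way, near the shares of all genes. Higher in the diaphragm beside Gadd45a was Hsd11b1, which regenerates corticosterone. It read 1136, 1155 and 1225 in the diaphragm and 383, 604 and 333 in the EDL (2.75-fold, adjusted p = 0.0057). Glul, glutamine synthetase, was 1.47-fold and Klf9 1.30-fold higher in the EDL. Leaving out 1 array left 0 or 1 of the 2 EDL calls of that list, and 1 of the diaphragm calls without the first or the third DIA or the first or second EDL array. Of 17 circadian clock genes, Rora (1.88-fold, adjusted p = 0.008) and Bhlhe41 were higher in the EDL and none in the diaphragm. The EDL count (11.8%) lay near the share of all genes (9.84%). Of 15 immediate early genes 1 was called, Ier3, 2.59-fold higher in the diaphragm (adjusted p = 0.0016), and 3 were called without the third DIA array.

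The remaining genes among the 15 largest differences in each direction came from several settings. In the diaphragm, Pla2g2a, a secreted phospholipase, read 1381, 449.6 and 281 in the diaphragm and 51.5, 8.89 and 14.2 in the EDL (29.95-fold, adjusted p = 0.007, and 5.48-fold with 100 added). Tnni3, cardiac troponin I, read 917, 1017 and 632 in the diaphragm and 100.3, 24.96 and 53.2 in the EDL (16.4-fold, adjusted p = 0.0026, and 6.01-fold with 100 added). Slpi, a protease inhibitor of mucosal surfaces, read 988, 1979.8 and 1379.8 in the diaphragm and 91.1, 114 and 61.97 in the EDL (16.1-fold, adjusted p = 5.83e-04, and 7.96-fold with 100 added), Mmrn1, multimerin of platelets and endothelium, was 11.7-fold higher (adjusted p = 0.0012, and 6.26-fold with 100 added) and Ezr, ezrin, 16.9-fold (adjusted p = 0.0279, and 4.84-fold with 100 added; lost without any 1 diaphragm array). The Tnni3 signals of the 2 muscles did not overlap.

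In the EDL, Tbc1d10c, a GTPase activating protein, read 29.6, 51.5 and 38.4 in the diaphragm and 818, 577 and 743 in the EDL (18.2-fold, adjusted p = 2.05e-04, and 5.78-fold with 100 added) and Sfxn5, a mitochondrial sideroflexin, read 93.4, 22.3 and 18.5 in the diaphragm and 852, 576 and 461 in the EDL (18.004-fold, adjusted p = 0.0051, and 5.05-fold with 100 added). Cd24, a small surface glycoprotein, was bright and read 885, 1240.2 and 1162 in the diaphragm and 7565, 8353 and 7224 in the EDL (7.10-fold, adjusted p = 2.05e-04). The EDL was also higher in Cib2, a calcium and integrin binding protein (5.91-fold, adjusted p = 1.74e-04, and 3.71-fold with 100 added), Adgrb2, an adhesion receptor (6.64-fold, adjusted p = 0.0182, and 3.01-fold with 100 added), and the genes named only LOC102548331 (10.5-fold, and 7.34-fold with 100 added) and LOC100912310 (5.30-fold). Of these 30 genes, 27 were called whichever array was left out, the exceptions being Ezr, Hoxc9 (without the first or second EDL array) and Adgrb2 (without the first EDL array), and 23 were called when no signal minimum was set.

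The same muscle difference was then read in the EAMG rats, on 6 arrays that the control comparison did not use. There limma called 790 probe sets higher in the diaphragm (7.28%) and 428 higher in the EDL (3.95%). Without the second DIA EAMG array these counts were 305 and 137, and without the third DIA EAMG array 458 and 225. Of the 2472 probe sets called in the controls, 2405 (97.3%) differed in the same direction in EAMG, 886 were called again in that direction and none in the other; these 886 were 35.8% of the control calls and 72.7% of the EAMG calls. On 1643 of the 2472 the EAMG arrays of the muscles lay fully apart in the same direction, and on 2 in the opposite one. In EAMG, neither the same direction nor arrays lying apart was counted over all probe sets tested. These figures, with or without the second EDL EAMG array, therefore have no background to be read against. Without the second EDL EAMG array, 838 probe sets were higher in the diaphragm (7.73%) and 416 in the EDL (3.84%), 2429 of the 2472 (98.3%) had the same direction, 962 were called again in it and none in the other, and the arrays lay apart in the same direction on 1985 and in the opposite one on 3. All calls in the lists had the same direction in EAMG except Flnc, filamin C (log2 0.45 in control, -0.09 in EAMG), and Becn1 (-0.38 in control, 0.06 in EAMG); without that array the EAMG values were -0.02 and 0.14.

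The EAMG difference of slow fibre genes depended on the second EDL array. Sln read 21449, 21923 and 22671 in the diaphragm and 474, 11606 and 461 in the EDL, with the second EDL array far above the other two (log2 4.01, adjusted p = 0.0641; 5.56 and 6.32e-05 without that array). Tpm3 read 12073, 8098 and 13497 in the diaphragm and 2052, 18729 and 1648 in the EDL (log2 1.46, adjusted p = 0.3; 2.58 and 0.0038 without it). The median of the slow list was 0.46 with and 0.84 without that array, against 1.12 in the controls. Its fast genes did not move with them: Myh4 read 2191, 5311 and 3828 in the diaphragm and 34713, 32051 and 35399.5 in the EDL (log2 -3.26, adjusted p = 0.0018; -3.31 and 0.0044 without that array). Pln behaved otherwise, since its diaphragm signals were lower in EAMG on all arrays: it read 585, 479.6 and 558 in the diaphragm and 108, 219.6 and 188 in the EDL (log2 1.71, adjusted p = 0.0101; 1.92 without that array). Position and mesothelium genes were called in EAMG too, with Hoxa9 (log2 -4.43, adjusted p = 6.70e-04; -4.42 and 0.0022 without that array) and Msln (log2 4.07, adjusted p = 0.0052; 4.40 and 0.0067 without it). The list medians in EAMG were -0.49 for glycolysis, 0.63 for fat oxidation, 2.99 for mesothelium and 1.69 for macrophages, and without that array -0.53, 0.64, 3.02 and 1.89.

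Whether the muscle difference itself changed with EAMG was tested as an interaction in limma over the 12 arrays. No probe set passed (lowest adjusted p = 0.463), and 453 (4.18%) had an unadjusted p under 0.05, where 5% of the probe sets would be 542. Without the second EDL EAMG array none passed either. With 100 added to each signal 1 probe set passed, that of Pln, and without the first EDL EAMG array Pln and Cmss1 passed, 1 in each direction. A p that misses the threshold does not show that the differences were equal.

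**Figure D5:**
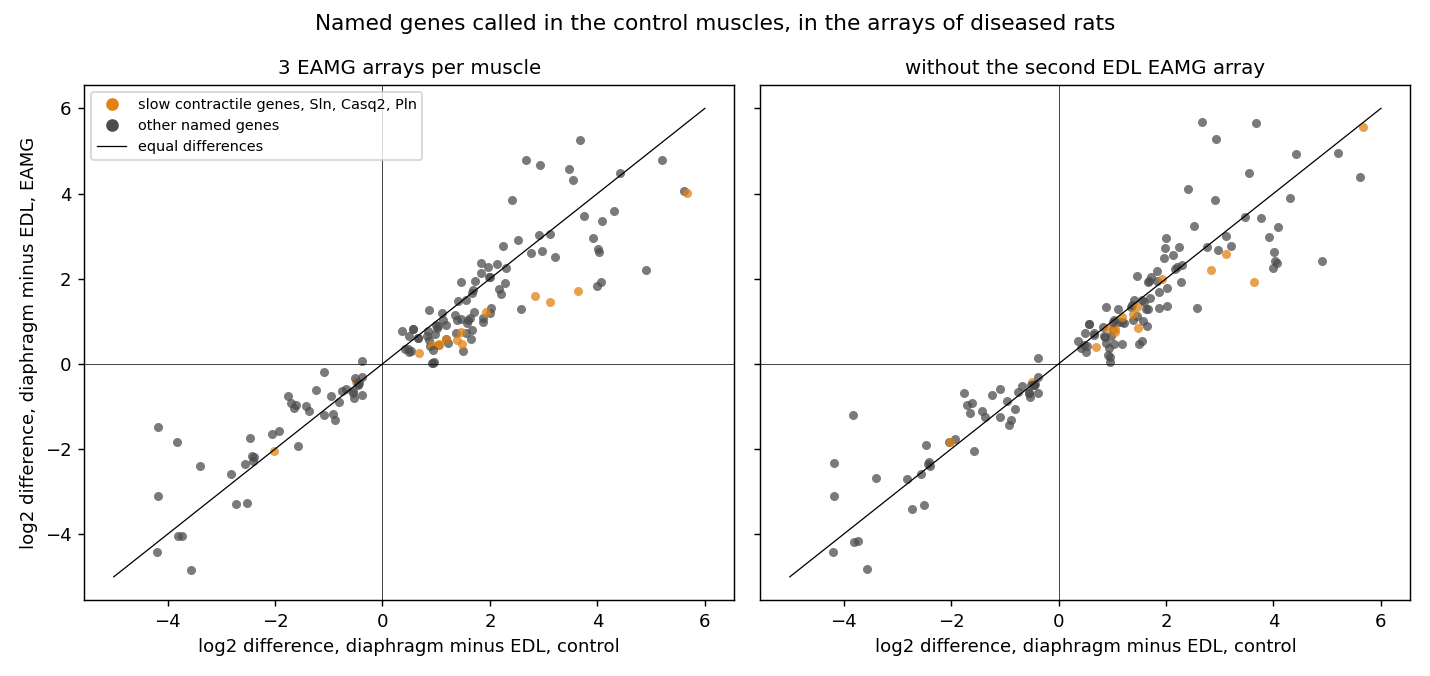
Log2 difference (diaphragm minus EDL) in the EAMG arrays against that in the control arrays for 146 named genes called in the controls, with all EAMG arrays (left) and without the second EDL EAMG array (right); the diagonal marks equal differences. Orange points, the slow contractile genes with Sln, Casq2 and Pln, lie below the diagonal at left where they are above 0, and 13 of the 15 lie closer to it at right.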

How the data were processed

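Pooled muscle RNA was read on Affymetrix Rat 230 2.0 arrays, 3 per group. The deposited values are the authors' GCOS 2.0 signals, a linear intensity per probe set scaled to 1 target: the mean of each array after trimming 2% at each end was 500.0. Of 31099 probe sets, 57 array controls were left out; 20826 of the rest have 1 gene symbol, 436 several and 9780 none. Log2 signals of probe sets reaching 400 on at least 1 of the 6 arrays were fitted by group in limma 3.58.1 (R 4.3.3) with Benjamini-Hochberg adjustment, and called at an adjusted p under 0.05. A gene was read by its brightest probe set. It could pass the signal minimum through 1 muscle alone, so counts in lists of dim markers partly restate the minimum. The number of arrays limits the precision. Detection calls were not used, so folds of genes whose lower muscle averaged under 100, and of some brighter ones, are given also with 100 added to each signal. The tests were checked on simulated data. Members and lists were chosen with earlier results of these data known. Named by rule were the 15 genes with the largest called difference in each direction and a mean signal of at least 400 in the higher muscle, 2 to 4 leading genes of each list, or the leading 2 where none was called, every slow and fast contractile gene, and Acta1 and Ckm; others are named as chosen after their values were seen. Promoters came from RefSeq (GRCr8) and were found for 567 of 718 listed genes.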

Additional observations from a re-analysis of the deposited data

Results flagged for a closer look

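The muscle difference ran in opposite directions in control and EAMG arrays, with all arrays of the muscles apart in each, on 2 of the 2472 probe sets called in the controls. Ndrg3, of the N-myc downstream regulated family, read 402, 530.2 and 413 in the control diaphragm and 674, 728 and 617 in the control EDL (log2 difference -0.59, limma adjusted p = 0.028), but the EAMG difference was 0.46. Without the second EDL EAMG array, which read 219 against 383 and 387 on the other EDL EAMG arrays, it was 0.19. Rrm1, a subunit of ribonucleotide reductase, had a log2 difference of -0.55 in the controls (limma adjusted p = 0.038) and 0.30 in EAMG (0.31 without that array). The interaction of muscle and EAMG in limma had an unadjusted p of 0.0039 for Ndrg3 and 9.7e-04 for Rrm1, and neither passed adjustment (adjusted p = 0.998 for both). No cause was tested.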

How the results depend on the processing

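With no signal minimum, 31042 probe sets were tested and the calls fell to 298 higher in the diaphragm and 168 higher in the EDL; in EAMG they fell to 48 and 17, and lists with more members higher in the EDL fell from 9 to 5. Asking for a 2-fold difference gave 472 and 316 calls, and a ratio rule made here (at least 7 of the 9 ratios between arrays past 2-fold, in place of limma) 341 and 204; the methods' own rule rests on increase and decrease calls and was not run. With 100 added to each signal, 1 interaction above 0 was called. Leaving out 1 array gave 762 to 1344 calls higher in the diaphragm and 615 to 1268 higher in the EDL, in EAMG 305 to 838 and 137 to 416, 0 to 1 interactions each way, 23 to 27 lists (26 with all arrays) with more members higher in the diaphragm and 8 to 9 with more higher in the EDL. The cause of these shifts was not tested. Without a minimum, the number of tests and the probe sets that limma pools for its variances changed together. Each fit without 1 array had fewer arrays. The other settings (400 on 3 arrays, quantile normalization, a floor of 80, all 18 arrays, an intensity trend) kept both control counts within 1.5 times. No called difference of a named gene changed direction under any setting run. Of the named genes that did not pass, quantile normalization turned Acta1 (log2 0.055), Ckm (0.052), Myh1 (0.10), Myh2 (0.18) and Myl11 (0.037). Leaving out 1 array moved Myh1 from -0.057 to 0.056, above 0 without the first or the third DIA or the first EDL array. List medians near 0 turned too: after quantile normalization those of Z-disc and stretch (0.19), the respiratory chain (0.08) and oxygen, creatine and purine handling (0.09), and without 1 array those of Z-disc and stretch (up to 0.04), the endplate (-0.05), oxygen handling (0.06) and mitochondrial biogenesis (down to -0.03); with 400 asked on 3 arrays, that of the myogenic list (-0.06).

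With the replicate number as a block, 1726 probe sets were higher in the diaphragm and 1512 in the EDL, among them 3 endplate genes and 12 endothelial and pericyte markers in the diaphragm. Same-numbered arrays of the muscles deviated together at correlations of 0.084, 0.432 and 0.472, and arrays of different number at -0.509 to 0.295. By the study's methods, the experiment was repeated to give the 3 replicates, but equal numbers are not said to mark the same repeat. The main fit did not take the numbers as pairs, and whether they share rats was not tested. Not every array correlated best with its own number.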
